A study of Mus musculus with 6 samples.

Results

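The genes described are 36 genes of the endoplasmic reticulum (ER) folding machinery and of the unfolded protein response, out of 24421 genes in the count table. They were taken by symbol from a list of ER chaperones, disulfide enzymes, factors of ER-associated degradation and stress sensors, and all 36 had a row. The RNA came from Neuro2a, a mouse neuroblastoma line labelled wild type and as mouse brain tumour cells. It was grown in DMEM with 10% fetal bovine serum on collagen I-coated 6-well plates. The shFam172a group (3 samples) had received an adenovirus with a short hairpin RNA against Fam172a (ADV-shFam172a) for 48 h, and the shCtrl group (3 samples) the same kind of virus with a control hairpin (ADV-shCtrl) for 48 h. All 6 samples therefore carried an adenovirus and a hairpin, and the labels describe no uninfected cells. By its title and design text the study is about Fam172a in energy balance and POMC neurons, and the cells here are a tumour line and not such neurons. Nothing in the labels says that the 3 samples of a group were separate infections or cultures. The p-values therefore set the group difference only against the variation among these samples, and that variation may be technical.

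Proteins that enter the ER are folded by luminal chaperones, given disulfide bonds by oxidases and isomerases, and, when folding fails, drawn back into the cytosol for degradation. The unfolded protein response adjusts this capacity through the membrane sensors ATF6, IRE1 (gene Ern1) and PERK (gene Eif2ak3). ATF6 and the spliced form of XBP1 raise transcription of chaperone and degradation genes, while PERK slows translation and raises ATF4. Splicing of Xbp1, cleavage of ATF6 and phosphorylation of PERK are not visible in gene counts. In cells that secrete peptides, such as neuroendocrine cells, this machinery handles the load of newly made secretory proteins.

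Gene counts summed to 21690467 to 23409319 per shFam172a library and to 11250312 to 12820531 per shCtrl library, so depth goes with the group. With every library thinned to the smallest, 20 of the 36 genes were still called higher and 1 lower. The shFam172a replicate 3 library stood apart in its share of pairs with too low alignment quality, at 4.46% against 6.65% and 7.12% in the other shFam172a libraries and 4.83% to 5.83% in the shCtrl libraries. Without it, 19 of the 36 genes were higher and 2 lower. Fam172a had 9.22, 8.27 and 9.21 CPM (counts scaled to library size) in the shFam172a libraries, against 18.6, 19.3 and 19.5 CPM in the shCtrl libraries, and was lower by edgeR's quasi-likelihood test (log2 fold change -1.10 ± 0.092, where ± gives the SE of a fold change here and below, adjusted p = 2.4e-12). The neuroblastoma markers had a summed level of 1999 to 2046 CPM in shFam172a and 1930 to 1952 CPM in shCtrl. Of 11 of them that were tested 6 were higher (all genes 17.5%) and 1 lower (all genes 18.6%). Their median log2 fold change was 0.14, close to that of the ER genes below. They moved unequally, with Th at 18.7 ± 1.05 CPM in shFam172a and 9.28 ± 1.30 CPM in shCtrl, and Elavl4 at 213 ± 7.35 CPM in shFam172a and 302 ± 3.74 CPM in shCtrl (SD, n = 3 each). The 10 macrophage markers summed to 1.41 to 1.57 CPM in shFam172a and 0.856 to 1.46 CPM in shCtrl. Ptprc had 0 counts in all 6 libraries. Cd68, the only macrophage marker tested, was higher (0.998 ± 0.40, adjusted p = 0.048). It had 24, 21 and 23 counts in the shFam172a libraries and 7, 3 and 8 counts in the shallower shCtrl libraries. The 10 fibroblast markers summed to 9.88 to 12.2 CPM in shFam172a and 11.5 to 12.9 CPM in shCtrl. Astrocyte and oligodendrocyte markers summed to 47.8 to 52.7 CPM in shFam172a and 50.6 to 54.0 CPM in shCtrl. Of 4 tested, Cnp was lower (-0.23 ± 0.079, adjusted p = 0.021) and 3 were not called. Endothelial and epithelial markers summed to 30.0 to 33.1 CPM in shFam172a and 24.6 to 27.6 CPM in shCtrl. Of 4 tested, Vwf was higher (0.67 ± 0.11, adjusted p = 5.1e-06) and 3 were not called. The part of other cells in the differences below was not tested.

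Most of the ER genes that differed were higher in shFam172a, by small amounts. Of the 36 genes, all of which passed the filter on low counts, 20 were higher (55.6%, against 17.5% of all 12820 genes tested) and 3 were lower (8.33%, against 18.6% of all genes tested), at an adjusted p under 0.05. Their median log2 fold change was 0.14, and that of all genes tested was -0.00030. Well-expressed genes are called more readily, so the same counts were taken among genes with a mean of at least 10 CPM. There 20 of 35 ER genes were higher, beside 20.5% of 9397 genes, and 3 were lower, beside 23.6%. That floor does not match the other genes to the ER genes in level, and no set matched in level was compared. Only 6 of the 36 were called higher with more than a 1.2-fold difference (16.7%, against 7.64% of all genes), namely Ero1l, P4hb, Syvn1, Hspa5, Hyou1 and Pdia6, and 1 was called lower by as much (Wfs1, against 6.35%). In bulk RNA, fewer cells that express a gene and less of its RNA per cell cannot be told apart. The CPM values of the groups did not overlap for 23 of the 36 genes (63.9%, against 46.0% of all genes tested).

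**Figure D1:**
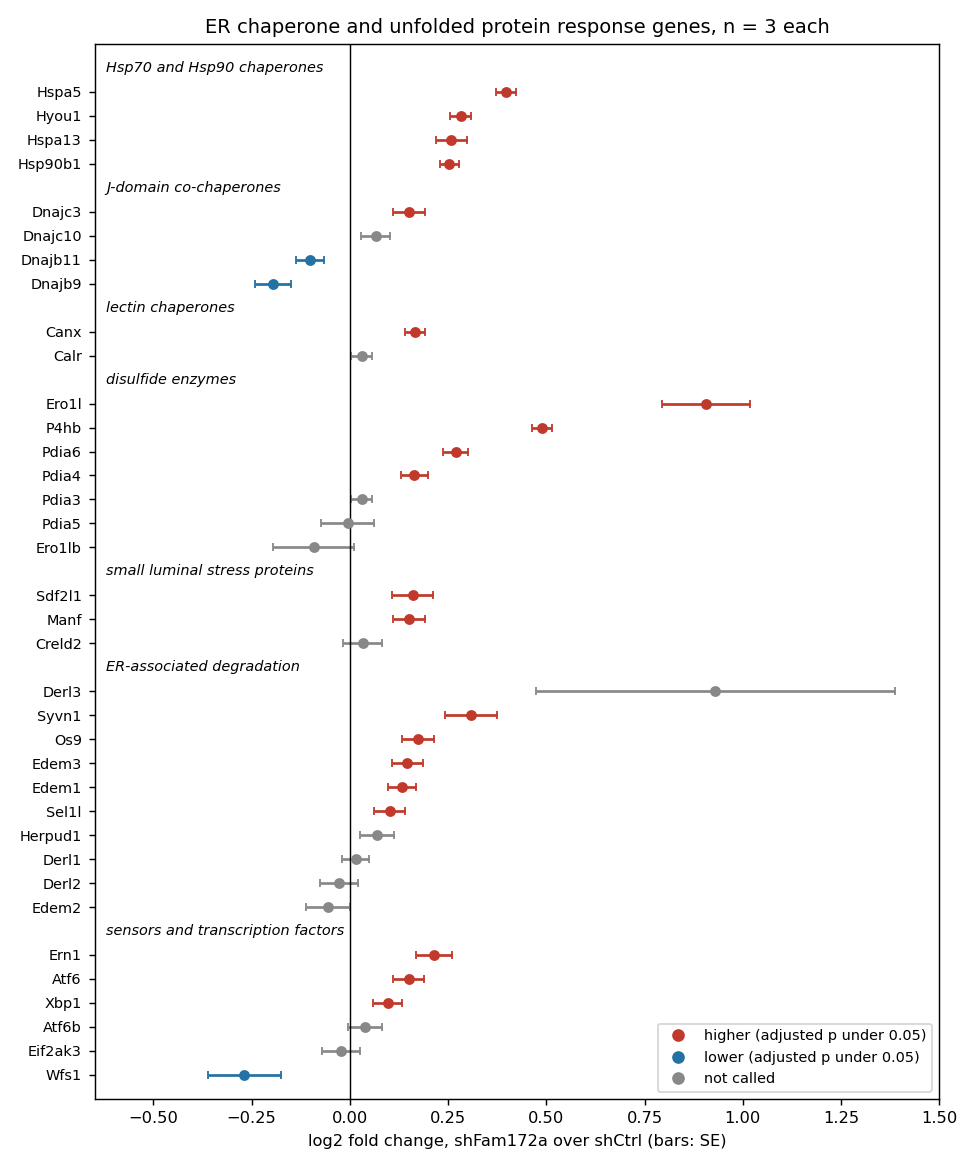
Log2 fold change of shFam172a over shCtrl for each of the 36 genes, ordered by role, with bars for the SE and colours for the call at an adjusted p under 0.05. All 4 Hsp70 and Hsp90 chaperones lie right of 0, Ero1l and P4hb lie farthest right among called genes, and the 3 called lower are Dnajb9, Dnajb11 and Wfs1.

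Together the 36 genes took up 0.982% ± 0.0093 of gene counts in shFam172a and 0.835% ± 0.0046 in shCtrl (SD, n = 3 each). In summed level this was 9761, 9878 and 9911 CPM in the shFam172a libraries, against 8362, 8287 and 8338 CPM in the shCtrl libraries. A few abundant genes made up most of the net difference of 1521 CPM between the group means. Ero1l supplied 21.7% of it, Hspa5 18.3%, P4hb 15.8%, Hsp90b1 14.4% and Canx 10.2%.

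The ER stress response element (ERSE), made of CCAAT and CCACG with 9 bases between them, is the sequence through which NF-Y and ATF6 are known to act on ER chaperone promoters. It was searched for on both strands from 250 bases before to 50 bases after the start of each gene, in RefSeq sequences of build GRCm38.p6. Promoters were found for 31 of the 36 genes, Ero1l and Ero1lb among them through their current RefSeq symbols, and no entry was found for Hyou1, Hspa13, Manf, Derl1 and Atf6. An ERSE stood in 10 of the 31 promoters (32.3%), against 37 of all 27025 genes searched (0.137%) and 20 of the 9751 tested genes searched (0.205%). Since the element was described in promoters of this kind, its frequency here is background rather than a result. The matches are shown because genes that carry the same element differed in their call. Capitals mark the constant bases, each is read in the direction of the motif, and Hsp90b1 holds a pair.
Hspa5 (chr2:34772025-34772043, plus strand): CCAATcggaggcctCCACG
Hsp90b1 distal (chr10:86705638-86705656, minus strand): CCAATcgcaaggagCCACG
Hsp90b1 proximal (chr10:86705533-86705551, plus strand): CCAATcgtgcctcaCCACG
Canx (chr11:50325800-50325818, minus strand): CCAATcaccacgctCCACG
Pdia6 (chr12:17266491-17266509, plus strand): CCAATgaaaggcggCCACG
Dnajc3 (chr14:118937827-118937845, plus strand): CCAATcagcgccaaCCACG
Syvn1 (chr19:6046532-6046550, plus strand): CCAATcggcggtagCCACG
Calr (chr8:84847075-84847093, plus strand): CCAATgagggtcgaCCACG
Creld2 (chr15:88819520-88819538, minus strand): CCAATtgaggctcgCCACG
Ero1lb (chr13:12565682-12565700, minus strand): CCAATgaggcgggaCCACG
Derl3 (chr10:75893242-75893260, minus strand): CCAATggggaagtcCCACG

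Of the 10 genes with an ERSE, 6 were higher (all genes 17.5%), namely Hspa5, Hsp90b1, Canx, Pdia6, Dnajc3 and Syvn1. None of the 10 was lower (all genes 18.6%), and Calr, Creld2, Ero1lb and Derl3 were not called. The median log2 fold change of the 10 was 0.21. Of the 21 searched genes without one, 10 were higher (all genes 17.5%), 3 lower (all genes 18.6%) and 8 not called, with a median of 0.07. In 5 of the 6 genes that were higher the only match, and in Hsp90b1 1 of the pair, ran in the direction of the gene, while in the 4 genes not called it ran opposite to the gene, a pattern seen after the calls were known and not tested. It rests on calls that are not firm. With offsets for transcript length and GC content Calr was called higher. Derl3 had the largest log2 fold change of the 10, at 0.93, but only 2 to 24 counts per library. Among the other 10 tested genes with an ERSE, all outside the 36, 3 were higher (all genes 17.5%), 2 lower (all genes 18.6%) and 5 not called. The shorter ERSE-II, made of ATTGG and CCACG with 1 base between them, stood in the promoters of Dnajb11 and Herpud1 (against 0.0444% of all genes searched). Dnajb11 was called lower and Herpud1 was not called. Neither TGACGTGG, a site of ATF6 and XBP1 found in 0.714% of all promoters searched, nor TGATGNAAT, a site of ATF4 found in 1.08%, was found in these windows, which says only that those letters are not there. TGACGTGG overlaps the letters ACGTG and the reverse complement of CCACG.
Dnajb11 (chr16:22857852-22857862, plus strand): ATTGGcCCACG
Herpud1 (chr8:94386377-94386387, plus strand): ATTGGgCCACG

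Whole windows are given for Hspa5 and Calr, abundant chaperones with an ERSE of which the first was higher and the second was not called, for Dnajb11, which was lower, and for Ero1l, which had the largest called rise. Capitals mark the ERSE in Hspa5 and Calr (in Calr on the opposite strand), the ERSE-II in Dnajb11, and in Ero1l the match to the letters ACGTG, which there lies on the opposite strand. These letters are a core shared by sites of HIF and of XBP1. No other form of the HIF core was searched for or marked, so promoters without ACGTG may still hold one. They stood in 14 of the 31 promoters, in 21.8% of all promoters searched and in 29.2% of those of tested genes. Of the 14 ER genes with them 7 were higher (all genes 17.5%) and 1 lower (all genes 18.6%). Of the 17 genes without these letters 9 were higher (all genes 17.5%) and 2 lower (all genes 18.6%). No test compared the genes with and without these letters. The letters CCACG alone, which overlap every ERSE and ERSE-II match, stood in 25 of the 31 promoters. They stood in 35.5% of all promoters searched and in 52.5% of those of tested genes. Of the 25 genes 15 were higher (all genes 17.5%) and 2 lower (all genes 18.6%). Of the 6 genes without CCACG 1 was higher (all genes 17.5%) and 1 lower (all genes 18.6%). The difference between genes with and without CCACG was not tested.
Hspa5 (chr2:34771840-34772139, plus strand): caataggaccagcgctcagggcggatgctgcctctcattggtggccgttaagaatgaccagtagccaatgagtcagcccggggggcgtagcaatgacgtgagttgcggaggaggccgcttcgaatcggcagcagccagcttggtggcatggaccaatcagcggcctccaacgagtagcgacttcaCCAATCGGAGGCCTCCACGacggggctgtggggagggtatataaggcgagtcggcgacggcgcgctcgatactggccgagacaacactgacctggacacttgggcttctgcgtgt
Calr (chr8:84846882-84847181, minus strand): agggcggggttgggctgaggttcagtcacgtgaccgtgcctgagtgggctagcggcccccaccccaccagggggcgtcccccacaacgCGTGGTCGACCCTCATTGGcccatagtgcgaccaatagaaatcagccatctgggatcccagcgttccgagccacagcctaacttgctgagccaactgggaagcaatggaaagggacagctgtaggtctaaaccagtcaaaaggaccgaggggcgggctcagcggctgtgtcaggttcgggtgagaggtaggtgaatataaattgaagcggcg
Dnajb11 (chr16:22857595-22857894, plus strand): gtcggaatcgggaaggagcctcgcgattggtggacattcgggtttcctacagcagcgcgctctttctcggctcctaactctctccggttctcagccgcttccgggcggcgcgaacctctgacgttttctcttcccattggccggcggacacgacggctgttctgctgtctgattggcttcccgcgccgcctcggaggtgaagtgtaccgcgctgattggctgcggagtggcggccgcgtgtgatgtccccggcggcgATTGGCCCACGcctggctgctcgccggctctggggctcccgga
Ero1l (chr14:45318523-45318822, minus strand): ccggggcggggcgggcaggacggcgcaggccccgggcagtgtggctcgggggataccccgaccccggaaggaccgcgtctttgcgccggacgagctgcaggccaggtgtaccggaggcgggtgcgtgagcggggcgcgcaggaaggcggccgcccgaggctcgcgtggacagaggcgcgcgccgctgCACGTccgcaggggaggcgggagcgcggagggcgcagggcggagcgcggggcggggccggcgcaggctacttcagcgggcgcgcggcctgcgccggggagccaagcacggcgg

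All 4 chaperones of the Hsp70 and Hsp90 families were higher in shFam172a (all genes 17.5%). In each the shFam172a values lay above all shCtrl values (all genes 22.5%). Hspa5 encodes BiP, the main Hsp70 of the ER lumen and the partner that holds the stress sensors inactive. It stood at 1141, 1154 and 1161 CPM in the shFam172a libraries and at 879, 877 and 866 CPM in the shCtrl libraries. This was a 1.32-fold difference (log2 fold change 0.40 ± 0.025, adjusted p = 8.1e-16), larger than the range within either group. Hsp90b1, the ER form of Hsp90 known as GRP94, had 1361, 1356 and 1361 CPM in shFam172a, against 1134, 1147 and 1142 CPM in shCtrl (0.25 ± 0.025, adjusted p = 1.2e-10). Hyou1 encodes a large Hsp70-like protein that acts as an exchange factor for BiP, and had 536, 529.8 and 539 CPM in shFam172a and 449, 431 and 439.8 CPM in shCtrl (0.28 ± 0.027, adjusted p = 1.3e-10). Hspa13, a microsomal Hsp70, was higher as well (0.26 ± 0.040, adjusted p = 2.2e-06). It had 108, 104 and 112 CPM in shFam172a, against 88.9, 88.9 and 92.5 CPM in shCtrl. The 4 calls held under all 14 other settings of scaling, test, filter or libraries. Hsp90b1 overlaps a transcribed pseudogene on the opposite strand over 10.3% of its exon length, and whether the counting was by strand is not stated.

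Of the 4 J-domain proteins, which drive the BiP cycle, 1 was higher (all genes 17.5%), 2 were lower (all genes 18.6%) and 1 was not called. Dnajb9, or ERdj4, a co-chaperone that represses IRE1 through BiP and a well known target of spliced XBP1, was lower in shFam172a. It had 53.2, 56.1 and 53.1 CPM in shFam172a and 61.9, 62.4 and 61.8 CPM in shCtrl, with no overlap (-0.20 ± 0.047, adjusted p = 0.0010). With offsets for transcript length and GC content it was at -0.08 with adjusted p = 0.18. Dnajb11, or ERdj3, which binds unfolded clients for BiP, had 142, 148 and 150.1 CPM in shFam172a, against 152, 161 and 159 CPM in shCtrl (-0.10 ± 0.035, adjusted p = 0.019). That call was lost without shFam172a replicate 1, without shCtrl replicate 2 and without shCtrl replicate 3. It was also lost with DESeq2, with thinned counts and with the length and GC offsets. Over these settings adjusted p rose to 0.12. Dnajc3, known as p58IPK, was higher at 87.3, 86.1 and 90.3 CPM in shFam172a, against 79.3, 79.3 and 78.9 CPM in shCtrl (0.15 ± 0.041, adjusted p = 0.0036). Dnajc10, or ERdj5, a reductase that opens disulfides of degradation clients, was at 118 ± 0.844 CPM in shFam172a and 113 ± 1.44 CPM in shCtrl (SD, n = 3 each), which did not pass the test (adjusted p = 0.16).

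**Figure D2:**
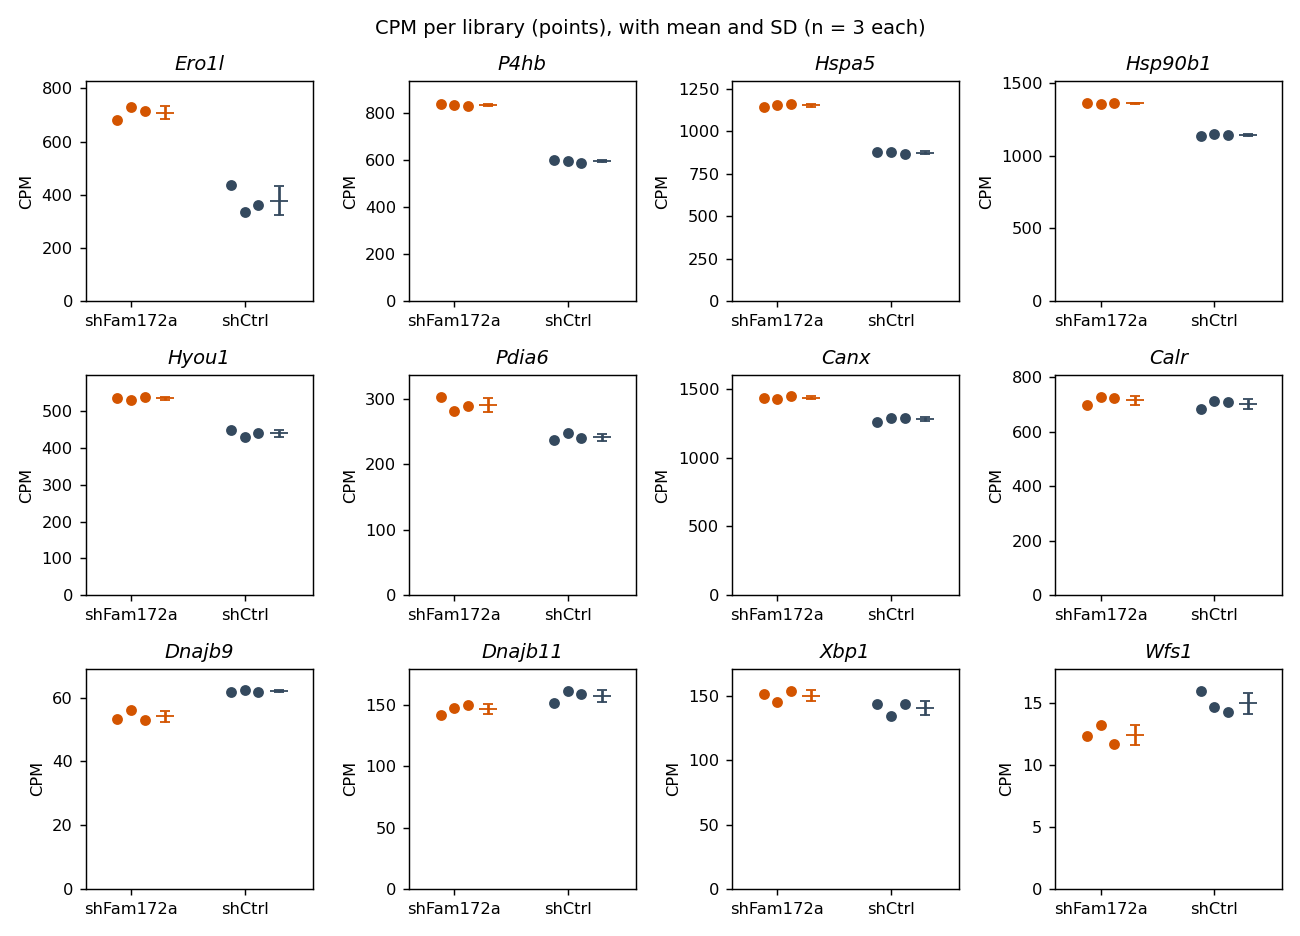
CPM of 12 of the ER genes in each library (points, axes from 0) with the mean and SD to their right, n = 3 each. The shFam172a points of Ero1l, P4hb, Hspa5, Hsp90b1, Hyou1, Pdia6, Canx and Xbp1 lie above all shCtrl points, those of Dnajb9, Dnajb11 and Wfs1 below them, and those of Calr overlap with them.

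Of the lectin chaperones, which hold glycoproteins during folding, Canx was higher and Calr was not called, and the difference between them was not tested. Canx, the membrane-bound calnexin, stood at 1432, 1423 and 1447 CPM in shFam172a and at 1261, 1286 and 1287 CPM in shCtrl, and was higher by 0.17 ± 0.025 (adjusted p = 1.1e-06). Calr, the soluble calreticulin and a calcium store of the lumen, had 698, 728 and 725 CPM in shFam172a and 682, 713 and 711 CPM in shCtrl. Its groups overlapped, and the difference of 0.03 ± 0.027 did not pass the test (adjusted p = 0.42). With length and GC offsets Calr was called at 0.07 (adjusted p = 0.014).

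Among the disulfide enzymes 4 of 7 were higher (all genes 17.5%) and 0 lower (all genes 18.6%), with the largest called differences of the whole set. Ero1l (Ero1a in current naming) encodes the oxidase that passes electrons from protein disulfide isomerase to oxygen, and is also known as a gene induced by HIF in low oxygen. It had 682, 729 and 713 CPM in the shFam172a libraries, against 437, 334 and 363 CPM in the shCtrl libraries. The group means differed 1.87-fold with no overlap (0.91 ± 0.11, adjusted p = 0.0042). The shCtrl libraries varied more for Ero1l than for the other abundant members, with replicate 1 the highest, and without that replicate the difference was 1.03 (adjusted p = 6.7e-31). With the replicate number as a block the difference was 0.91 (adjusted p = 0.042), the highest adjusted p of Ero1l under the 14 other settings. The 19 HIF targets, among which Ero1l was not counted, summed to 7518, 7148 and 7107 CPM in the shFam172a libraries. In the shCtrl libraries they summed to 4129, 3878 and 3858 CPM. Replicate 1 had the highest sum in both groups, while for Ero1l it was the highest in shCtrl and the lowest in shFam172a. Of the 19 HIF targets 17 were higher (all genes 17.5%) and 0 lower (all genes 18.6%). The part of HIF in the Ero1l difference was not tested.

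Ero1lb (Ero1b), the paralog known from pancreatic beta cells, was far less abundant and was not called. It had 12.2, 11.1 and 12.9 CPM in shFam172a and 15.2, 12.1 and 11.2 CPM in shCtrl (-0.09 ± 0.10, adjusted p = 0.52). As RPKM, which is CPM divided by exon length in kilobases, Ero1l stood at 134 ± 4.48 in shFam172a and 71.6 ± 10.1 in shCtrl (SD, n = 3 each). Ero1lb stood at 1.81 ± 0.142 RPKM in shFam172a and 1.93 ± 0.309 RPKM in shCtrl. A pseudogene shares 7.74% of the 75-base words of Ero1lb transcripts.

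P4hb encodes protein disulfide isomerase itself, which also serves as the beta subunit of collagen prolyl 4-hydroxylase. It had 839, 835 and 831 CPM in shFam172a, against 599, 596 and 589.9 CPM in shCtrl, a 1.40-fold difference (0.49 ± 0.026, adjusted p = 3.8e-18). The alpha subunits P4ha1 and P4ha2, known HIF targets, were higher by 0.81 and 1.23 on the log2 scale. Pdia6, an isomerase that also binds IRE1, was higher by 0.27 ± 0.031 (adjusted p = 8.5e-09), with 303, 282 and 289 CPM in shFam172a and 237, 248 and 240.2 CPM in shCtrl. Pdia4, or ERp72, was at 169 ± 3.71 CPM in shFam172a and 151 ± 5.48 CPM in shCtrl (0.16 ± 0.034, adjusted p = 2.1e-04). Pdia3, or ERp57, the isomerase that works with the lectin chaperones, was not called, at 559 ± 17.0 CPM in shFam172a and 548 ± 5.66 CPM in shCtrl (0.03 ± 0.028, adjusted p = 0.44). With length and GC offsets it was called at 0.09 (adjusted p = 0.0038). Pdia5 was at 32.6 ± 2.91 CPM in shFam172a and 32.8 ± 2.63 CPM in shCtrl (adjusted p = 0.96).

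Of 3 small luminal proteins of the stress response 2 were higher (all genes 17.5%) and 1 was not called. Sdf2l1, a BiP-associated protein, was at 48.9, 46.0 and 46.7 CPM in shFam172a and 42.8, 43.1 and 40.6 CPM in shCtrl (0.16 ± 0.053, adjusted p = 0.016). It missed the threshold with DESeq2, without shFam172a replicate 1 or without shCtrl replicate 3, with adjusted p up to 0.084. Manf, a secreted factor that also binds BiP, was higher by 0.15 ± 0.041 (adjusted p = 0.0036), at 113 ± 3.83 CPM in shFam172a and 102 ± 5.94 CPM in shCtrl. Creld2, one of the genes that ER stress is known to raise most, overlapped between groups at 54.6, 60.6 and 56.7 CPM in shFam172a and 55.7, 55.7 and 56.8 CPM in shCtrl (0.03 ± 0.049, adjusted p = 0.65).

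Of 10 genes of ER-associated degradation 5 were higher (all genes 17.5%), 0 were lower (all genes 18.6%) and 5 were not called. Syvn1, the ubiquitin ligase HRD1 at the core of the retrotranslocation complex, had the largest called difference of these, with 29.5, 32.2 and 32.0 CPM in shFam172a and 26.4, 24.8 and 24.5 CPM in shCtrl (0.31 ± 0.066, adjusted p = 2.8e-04). Its exons overlap Mrpl49 on the opposite strand over 1.87% of their length, so a part of its reads is uncertain, as it is for Manf with Dcaf1 (4.14%) and for Eif2ak3 with Gm43292 (8.05%, opposite strand). Sel1l, the adaptor that holds HRD1, was nearer the threshold and its groups overlapped. It stood at 110.4, 117 and 113 CPM in shFam172a, against 111, 101 and 105 CPM in shCtrl (0.10 ± 0.040, adjusted p = 0.042). The Sel1l call was lost without shFam172a replicate 2, without shCtrl replicate 2, without shCtrl replicate 3 and with the replicate number as a block (adjusted p = 0.057). It was also lost with DESeq2 and with the length and GC offsets, and over these settings adjusted p reached 0.27. Os9, a lectin that brings glycoproteins to this complex, was at 102 ± 2.01 CPM in shFam172a and 90.7 ± 4.38 CPM in shCtrl (0.17 ± 0.041, adjusted p = 8.5e-04).

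The EDEM proteins trim mannose from misfolded glycoproteins and mark them for removal. Edem1 was higher by 0.13 ± 0.036 (adjusted p = 0.0036) and Edem3 by 0.15 ± 0.040 (adjusted p = 0.0037), while Edem2 stood at 38.3 ± 0.764 CPM in shFam172a and 39.8 ± 1.82 CPM in shCtrl (-0.06 ± 0.056, adjusted p = 0.47). Derlins are membrane proteins of the retrotranslocation channel. Derl1 (0.02 ± 0.034, adjusted p = 0.77) and Derl2 (-0.03 ± 0.048, adjusted p = 0.70) were not called. Derl3 was barely detected, with 17, 13 and 24 counts in the shFam172a libraries and 2, 6 and 7 counts in the shallower shCtrl libraries, and its difference of 0.93 ± 0.46 did not pass (adjusted p = 0.11). Herpud1, a scaffold of the complex and a known early target of both ATF6 and ATF4, was at 90.9, 96.2 and 97.4 CPM in shFam172a and 93.7, 84.3 and 93.7 CPM in shCtrl (0.07 ± 0.043, adjusted p = 0.22), so its groups overlapped.

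Of 6 genes of the sensors and their factors 3 were higher (all genes 17.5%), 1 was lower (all genes 18.6%) and 2 were not called. Ern1, which encodes IRE1 alpha, the kinase and ribonuclease that splices Xbp1, was higher, with 65.2, 68.9 and 67.0 CPM in shFam172a and 58.2, 58.6 and 56.6 CPM in shCtrl (0.21 ± 0.046, adjusted p = 3.2e-04). Atf6, the sensor that is cut in the Golgi to release a transcription factor, was higher by 0.15 ± 0.039 (adjusted p = 0.0025). Its paralog Atf6b was at 73.5 ± 1.30 CPM in shFam172a and 71.7 ± 2.83 CPM in shCtrl (adjusted p = 0.54). Eif2ak3, the kinase PERK, was at 59.9, 59.4 and 56.2 CPM in shFam172a and 62.0, 57.7 and 58.8 CPM in shCtrl (-0.02 ± 0.048, adjusted p = 0.74). Xbp1, counted over both spliced and unspliced forms, had 152, 145 and 154 CPM in shFam172a and 144, 134 and 144 CPM in shCtrl. This difference of 0.10 ± 0.036 passed (adjusted p = 0.033). The call was lost with DESeq2 and without shFam172a replicate 1, shFam172a replicate 3 or shCtrl replicate 2, with adjusted p up to 0.25. Wfs1, the ER membrane protein wolframin, which is known to restrain ATF6, was lower at 12.3, 13.2 and 11.7 CPM in shFam172a, against 15.9, 14.7 and 14.3 CPM in shCtrl (-0.27 ± 0.092, adjusted p = 0.020). Its call was lost with DESeq2, with thinned counts, without shFam172a replicate 3 and without shCtrl replicate 1, with adjusted p up to 0.11.

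The order of the 36 genes by level per exon length shifted near its top. In shFam172a the highest were Hsp90b1 at 337 RPKM, Canx at 306, P4hb at 292, Hspa5 at 272, Calr at 249 and Pdia3 at 178 RPKM, and no neighbours in this order overlapped between samples. In shCtrl the order was Hsp90b1 at 283 RPKM, Canx at 272, Calr at 244, P4hb at 208, Hspa5 at 207 and Pdia3 at 175 RPKM, and there P4hb and Hspa5 overlapped. P4hb and Hspa5 thus stood above Calr in shFam172a and below it in shCtrl. Ero1l ranked 7 in both groups, but in shCtrl its samples overlapped with those of Pdia6, at 64.5 RPKM, and in shFam172a, where Pdia6 had 77.8 RPKM, they did not. From Xbp1 to Os9 in shFam172a each gene overlapped with its neighbour, between 46.3 and 38.9 RPKM. Lowest in both groups were Wfs1, Ero1lb and Derl3, the last at 0.405 RPKM in shFam172a and 0.210 RPKM in shCtrl. Lengths are merged exons of GENCODE M21, which may not be the annotation behind the counts.

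**Figure D3:**
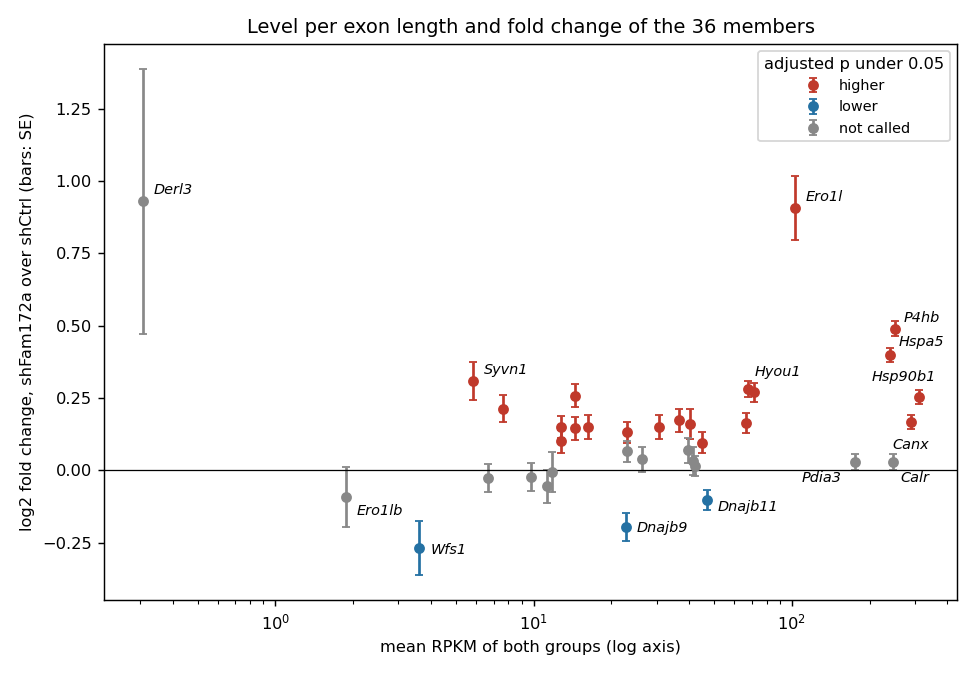
Log2 fold change of shFam172a over shCtrl (bars: SE) against the mean RPKM of both groups on a log axis, for the 36 genes, coloured by call. Ero1l, P4hb and Hspa5 combine high levels with the largest called rises, Calr and Pdia3 lie near 0 at similar levels, and Derl3, the least abundant, has the widest error.

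Neighbouring steps of the secretory pathway were counted from lists drawn up alongside the members, both with earlier results of these data known. No list test was run. The counts are to be read against the 17.5% of all genes tested that were higher and the 18.6% that were lower. From each list the called genes of smallest p are named. For transport between ER and Golgi and the retrieval of ER proteins, 8 of 15 genes were higher (all genes 17.5%) and 0 lower (all genes 18.6%), and their median was 0.12 on the log2 scale. The smallest p belonged to Arfgap3, a COPI coat regulator, at 0.47 ± 0.044 (adjusted p = 6.6e-11), followed by the cargo lectin Lman2 at 0.25 ± 0.032 and the cargo receptor Surf4 at 0.18 ± 0.031. The largest called difference, named after its values were seen, was that of the retrieval receptor Kdelr3 at 0.52 ± 0.16 (adjusted p = 0.0096), with 5.46 ± 0.607 CPM in shFam172a and 3.78 ± 0.469 CPM in shCtrl (SD, n = 3 each). Without shFam172a replicate 3, and likewise without shCtrl replicate 1, 1 gene of this list was lower. For the translocon and signal peptidase 6 of 18 were higher (all genes 17.5%) and 1 lower (all genes 18.6%), with a median of 0.05, and the named genes are the translocon-associated subunit Ssr3 at 0.19 ± 0.027, Sec62 at 0.20 ± 0.033 and Spcs2 at 0.20 ± 0.034. The gene that was lower, named after its values were seen, was the signal peptidase subunit Sec11c at -0.26 ± 0.046. Without shCtrl replicate 1, 2 of this list were lower. N-glycan transfer and trimming had 4 of 17 higher (all genes 17.5%) and 2 lower (all genes 18.6%), counts near those shares, with a median of 0.06. Subunits of oligosaccharyltransferase differed in both directions. The catalytic subunits Stt3b at 0.26 ± 0.030 and Stt3a at 0.23 ± 0.032 and the accessory subunit Magt1 at 0.31 ± 0.042 were higher. The subunits Krtcap2 at -0.20 ± 0.043 and Ddost at -0.10 ± 0.030, named after their values were seen, were lower, and Rpn1, Rpn2, Dad1, Ostc and Tusc3 were not called. Without shCtrl replicate 3, 1 of this list was lower.

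Other degradation factors were mostly not called, with 5 of 19 tested genes higher (all genes 17.5%) and 1 lower (all genes 18.6%), and a median of 0.03. The named genes are Erlin2 at 0.20 ± 0.039, the ubiquitin-conjugating enzyme Ube2j1 at -0.20 ± 0.044 and the ligase March6 at 0.13 ± 0.031. Without shCtrl replicate 2, 3 of them were higher, and without shFam172a replicate 3, 2 were lower. Other members of the disulfide isomerase family had 4 of 12 higher (all genes 17.5%) and 2 lower (all genes 18.6%), with a median of -0.05, and the named genes are Txndc11 at 0.30 ± 0.061, Tmx1 at -0.13 ± 0.031 and Txndc5 at 0.18 ± 0.048. A single one of the 2 was lower under 11 of the 14 other settings, among them without any one shFam172a replicate and without shCtrl replicates 1 or 2. Further regulators of the response had 5 of 15 higher (all genes 17.5%) and 0 lower (all genes 18.6%), with a median of 0.03, and the named genes are Tmbim6, an inhibitor of cell death at the ER, at 0.17 ± 0.029, the ER-bound factor Creb3l2 at 0.19 ± 0.049 and Dnajb2 at 0.23 ± 0.061. Without shCtrl replicate 3, 3 of them were higher and 1 was lower. Without shFam172a replicate 3, and likewise without shCtrl replicate 1, 1 was lower.

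Of 11 tested genes of the PERK and ATF4 arm 1 was higher (all genes 17.5%) and 6 were lower (all genes 18.6%), with a median of -0.09. Atf4, its transcription factor, was at 738 ± 16.5 CPM in shFam172a and 839 ± 7.32 CPM in shCtrl (SD, n = 3 each), a difference of -0.18 ± 0.026 (adjusted p = 5.0e-07), and the initiation factor Eif2s1 was at -0.23 ± 0.032 (adjusted p = 3.8e-07). Ddit4, the single gene that was higher, at 0.75 ± 0.039 (adjusted p = 3.0e-13), is also a known HIF target and stood in that list too. Ddit3, the death-linked factor CHOP and named after its values were seen, was at 81.9 ± 7.71 CPM in shFam172a and 85.3 ± 4.42 CPM in shCtrl (-0.06 ± 0.056, adjusted p = 0.48).

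**Figure D4:**
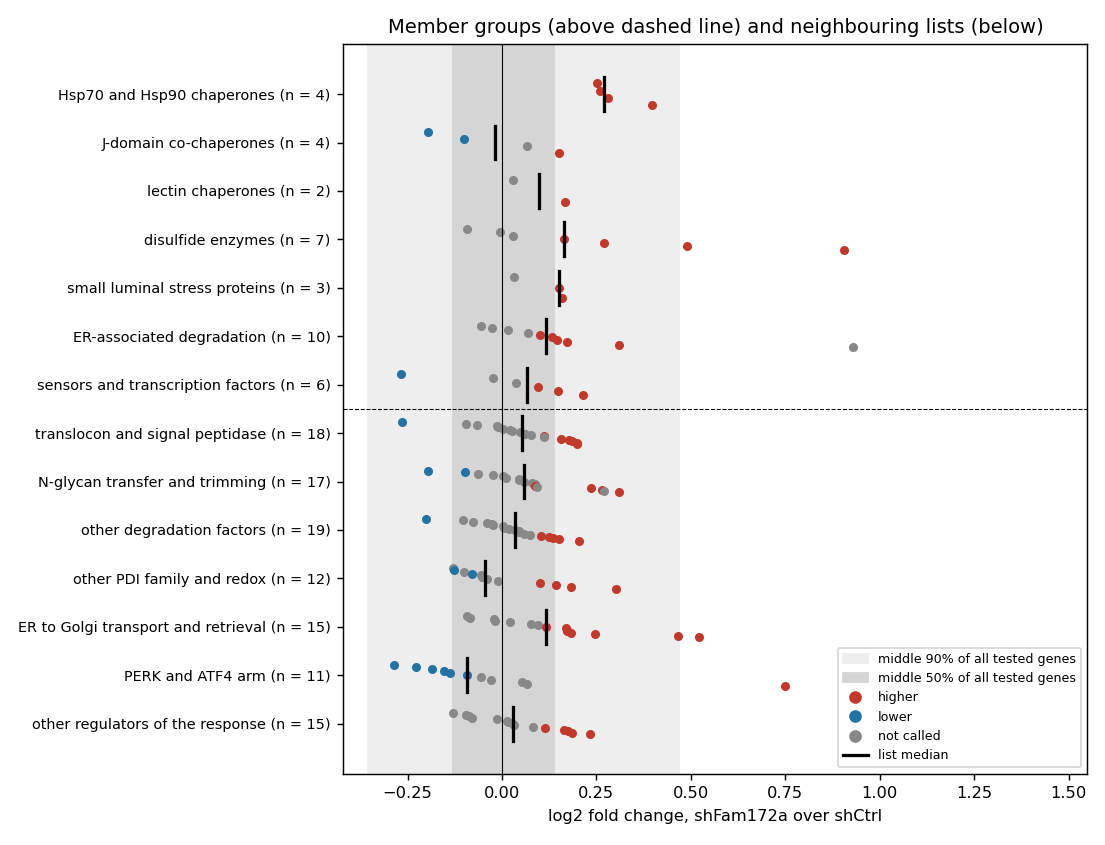
Log2 fold change of shFam172a over shCtrl for each tested gene of the member groups (above the dashed line) and of the neighbouring lists (below it), with black bars for list medians and grey bands for the middle 50% and 90% of all genes tested (-0.13 to 0.14 and -0.36 to 0.47). The Hsp70 and Hsp90 chaperones lie wholly to the right of the inner band, and the PERK and ATF4 arm lies mostly left of 0.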

How the data were processed

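The authors deposited raw counts per gene symbol for 6 libraries, and the counts were not normalized. Alignment tools and build are HISAT2 2.0.5, HTSeq and mm10, per the submitters' processing notes. Neither the annotation nor the strand setting is stated in those notes or in the labels. Libraries were paired-end, from TRIzol-extracted total RNA, per the labels' protocols. The 5 summary rows that name no gene entered neither library sizes nor tests. Of all pairs 16.4% to 17.9% lay in no gene and 9.58% to 10.4% had no unique alignment.

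Genes were filtered with filterByExpr (12820 kept). TMM scaling and a two-sided quasi-likelihood test (glmQLFit, robust, and glmQLFTest) were run in edgeR 4.0.16 under R 4.3.3, with Benjamini-Hochberg adjustment over all genes tested. The SE is the size of the log2 fold change divided by the square root of F, and CPM use TMM-scaled library sizes. RPKM divide CPM by merged exon length in GENCODE M21 (GRCm38). Tested on simulated data of this comparison over 12732 genes, the fit recovered 13 of 50 genes changed 1.1-fold and 38 of 50 at 1.25-fold. It recovered 47 of 50 at 1.5-fold and 50 of 50 at 2-fold, and called 3 of 12532 unchanged genes. Few genes were changed there, while 36.1% of genes tested were called in the data, and each gene's own spread was not simulated. These rates need not hold for the data. Alternatives were other scalings, DESeq2 1.42.0, limma-voom (limma 3.58.1), no filter, a replicate block, each library left out, thinned counts, and length and GC offsets (12754 genes with both). Members and lists were chosen with earlier results of these data known. The text names all 36 members, and from each neighbouring list the 3 called genes of smallest p with a mean of at least 2 CPM. The list symbols Hm13, Selenos and Selenok had no row, and Selenos and Selenok were counted under the older symbols Vimp and Selk. A protein sequence comparison that had been planned was not used here. Replicates of a group differed by more than sampling noise (chi-square per degree of freedom 1.61 to 2.84). That excess may be technical, so it does not show that the libraries are independent samples. Each library was counted as 1 sample in the tests.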

Additional observations from a re-analysis of the deposited data

How the results depend on the processing

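Across 14 other settings, 17 of the 20 genes called higher kept their call and direction in all of them, and Sdf2l1, Sel1l and Xbp1 lost it in at least 1. The 3 genes called lower each lost the call in at least 1 setting, and 4 genes not called (Dnajc10, Calr, Pdia3 and Herpud1) were called higher with length and GC offsets. No member reversed its direction while called. The number called lower was 1 with DESeq2, 1 with thinned counts and 1 with length and GC offsets, and the number called higher was 17 with DESeq2, 20 with thinned counts and 23 with the offsets. With 1 library left out at a time, 18 to 20 genes were higher and 2 to 3 lower, the median log2 fold change was 0.11 to 0.14, and Fam172a was at -1.13 to -1.05. The median was 0.15 with upper-quartile scaling and 0.12 with thinned counts. Thinning removes reads, and the cause of the other shifts was not tested. Same-numbered samples showed no common deviation over all genes tested (correlations -0.0054, -0.0038 and -0.0096). Each gene had equal weight there, so noise of low counts could hide a pairing, and none was assumed. With the replicate block 19 genes were higher and 3 lower, with a median of 0.14. Depth limits the low genes, above all Derl3, with 2 to 24 counts per library.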
